A study of Mus musculus with 8 samples.

Results

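Acute phase proteins are plasma proteins whose production, mainly by the liver, changes during inflammation or injury. The 10 genes described here, of 21968 gene symbols measured, were taken by symbol: the serum amyloids Saa1, Saa2, Saa3 and Saa4, the orosomucoids Orm1 and Orm2, haptoglobin (Hp), hemopexin (Hpx), lipocalin 2 (Lcn2) and serum amyloid P (Apcs). All 10 were found in each of the 8 libraries' tables, and all 10 passed the filter on low counts, as did 14404 genes in all.

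The RNA came from livers of mice that carry an Lgr5-LacZ transgene, which makes bacterial β-galactosidase (b-gal) under the Lgr5 gene, on a mixed C57BL/6 and CBA background. The mice were 10 to 12 weeks old by the sample labels and 7 to 12 weeks by the series text, and all had received carbon tetrachloride (CCl4), a toxin that injures hepatocytes, once into the peritoneum at 1 µl per g of body weight in rapeseed oil. Livers were taken on day 6, and the RNA of 4 groups of cells was read by bulk RNA-seq. The b-gal+ F4/80high and b-gal- F4/80high groups were sorted with a fluorogenic substrate of the enzyme and an antibody to F4/80, a macrophage surface antigen. The EpCAM-positive group, named cholangiocytes in the series text, was sorted with an antibody to that epithelial protein, and hepatocytes were collected as a low-speed pellet and not by a marker. There are n = 2 libraries a group, each made from pooled cells of 2 mice. Transgene and toxin are shared by all 4 groups, and livers without injury are not analysed here, so the values describe cell groups within the injured liver and not a response to the toxin. No label says whether libraries of the same replicate number share mice.

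In the acute phase response, IL-6 and IL-1 reach hepatocytes and act through STAT3, C/EBP factors and NF-κB on genes of secreted proteins. Saa1 and Saa2 encode the amyloid precursors carried on high density lipoprotein, which rise most steeply. Saa3 encodes a related protein made largely outside the hepatocyte, by macrophages among other cells, and Saa4 the constitutive family member. Orosomucoids are acid glycoproteins that bind drugs and lipids, haptoglobin binds free hemoglobin, hemopexin binds heme, lipocalin 2 binds bacterial siderophores, and serum amyloid P is a pentraxin.

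The serum amyloid genes lie together on chromosome 7 (GENCODE M21, GRCm38): Saa3 at chr7:46711998-46715700 and Saa4 at chr7:46727998-46732603, both on the minus strand, then Saa1 at chr7:46740497-46742980 on the minus strand and Saa2 at chr7:46751790-46754313 on the plus strand. Saa1 and Saa2 thus point away from each other. Their transcripts matched at 572 of 606 aligned bases (94.4%), against 76.3% for Saa1 and Saa3 over 520 aligned bases. Orm1 (chr4:63344560-63348163) and Orm2 (chr4:63362449-63365878), both on the plus strand, flank Orm3, and their transcripts were 91.0% identical. How the counting treated reads that fit both copies is not given in the sources used here, so the split of reads between Saa1 and Saa2, and among the orosomucoids, is uncertain. The other members stand alone: Hp at chr8:109575128-109579172, Hpx at chr7:105591613-105600137, Lcn2 at chr2:32384633-32388252 and Apcs at chr1:172893961-172895041, all on the minus strand.

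Upstream sequence is shown for Saa1 and Saa2, the closest pair among the serum amyloids, and for Saa3, the relative whose pattern differed from theirs. Each stretch holds 200 bases, 5′ to 3′ on the gene's strand, ending 50 bases before the RefSeq start site, with a C/EBP match in capitals (GRCm38.p6). Saa1 is chr7:46743031-46743230 (minus strand), Saa2 is chr7:46751583-46751782 (plus strand) and Saa3 is chr7:46715727-46715926 (minus strand).
Saa1: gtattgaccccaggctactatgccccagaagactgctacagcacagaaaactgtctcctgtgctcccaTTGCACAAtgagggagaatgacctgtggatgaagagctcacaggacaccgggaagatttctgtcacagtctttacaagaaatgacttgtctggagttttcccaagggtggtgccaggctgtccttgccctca
Saa2: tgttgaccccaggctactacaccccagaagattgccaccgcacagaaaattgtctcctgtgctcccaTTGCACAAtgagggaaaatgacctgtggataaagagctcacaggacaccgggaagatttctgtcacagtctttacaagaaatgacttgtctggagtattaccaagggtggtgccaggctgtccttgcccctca
Saa3: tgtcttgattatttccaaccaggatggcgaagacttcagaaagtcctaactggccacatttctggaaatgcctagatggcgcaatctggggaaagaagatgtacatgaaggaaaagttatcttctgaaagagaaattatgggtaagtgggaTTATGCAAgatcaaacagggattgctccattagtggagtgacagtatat
The 250 bases before the starts of Saa1 and Saa2 were identical at 238 of 249 aligned bases (95.6%). The C/EBP pattern TTGCNNAA, searched on both strands, began 182 bases before the Saa1 start and 183 bases before the Saa2 start with the same letters, TTGCACAA. In Saa3 it was found on the other strand, 99 bases before the start. Of the 10 members, 8 had an entry in the RefSeq promoter table, Orm1 and Hp being the exceptions. The C/EBP pattern was in 7 of these 8 (all but Apcs), against 9.57% of 32536 promoters of that length. The STAT pattern TTCNNNGAA was in 1, Apcs, against 7.04%, and the NF-κB consensus in none of the 8, against 3.92%. These are matches of letters, with no measurement of binding.

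Recovered reads per library ranged from 16948568 to 24549242, with 14432 to 16130 genes detected, and 3 reads were worth 0.122 to 0.177 CPM (counts per 1000000 reads, before scaling). The labels were checked against cell type markers. Adgre1, the gene of F4/80, was read at 1732 and 1361 CPM in b-gal+ replicates 1 and 2, and at 311 and 134 in b-gal- replicates 1 and 2. The Kupffer cell (liver macrophage) list of 10 genes summed to 31384 and 35171 CPM in b-gal+ F4/80high libraries but to 2237 and 3238 in b-gal- F4/80high libraries, where the sinusoidal endothelial list summed to 19697 and 22861. EpCAM-positive replicates 1 and 2 held 2093 and 6740 CPM of cholangiocyte markers beside 8384 and 7009 of endothelial markers. The same cholangiocyte list reached 1269 and 85.6 CPM (b-gal- replicates 1 and 2) and 659 and 55.7 (b-gal+ replicates 1 and 2). Spp1, singled out after its values were seen, made up most of these sums. Its mean levels were 3763 (EpCAM-positive), 671 (b-gal-) and 354 CPM (b-gal+). Of the 10 markers, 9 were called lower by limma in F4/80high than in EpCAM-positive cells. The b-gal- and EpCAM-positive libraries are therefore called by their gates below. In bulk RNA, fewer cells of a type and less RNA per cell cannot be told apart.

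Together the 10 members took 3.20% and 0.847% of the reads of hepatocyte replicates 1 and 2, and 0.0111% to 0.129% in the other 6 libraries. Per kilobase of transcript, the mean hepatocyte level was highest for Hpx (10172 CPM per kb), followed by Hp (7421), Saa1 (5677), Saa2 (4687), Orm1 (2434), Apcs (1658), Saa4 (606), Lcn2 (589), Orm2 (293) and Saa3 (21.9). With 1 exception, the 2 hepatocyte libraries of neighbours in this order overlapped: Saa3 lay below both libraries of Orm2. The order itself differed between libraries. In replicate 1, Saa1 (11192 CPM per kb) stood level with Hp (11288), while in replicate 2 Saa1 was at 162 and Hp at 3554. Outside hepatocytes Saa3 led all 3 groups, at mean levels of 552 to 614 CPM per kb, ahead of Hp at 83.2 to 128.

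**Figure D1:**
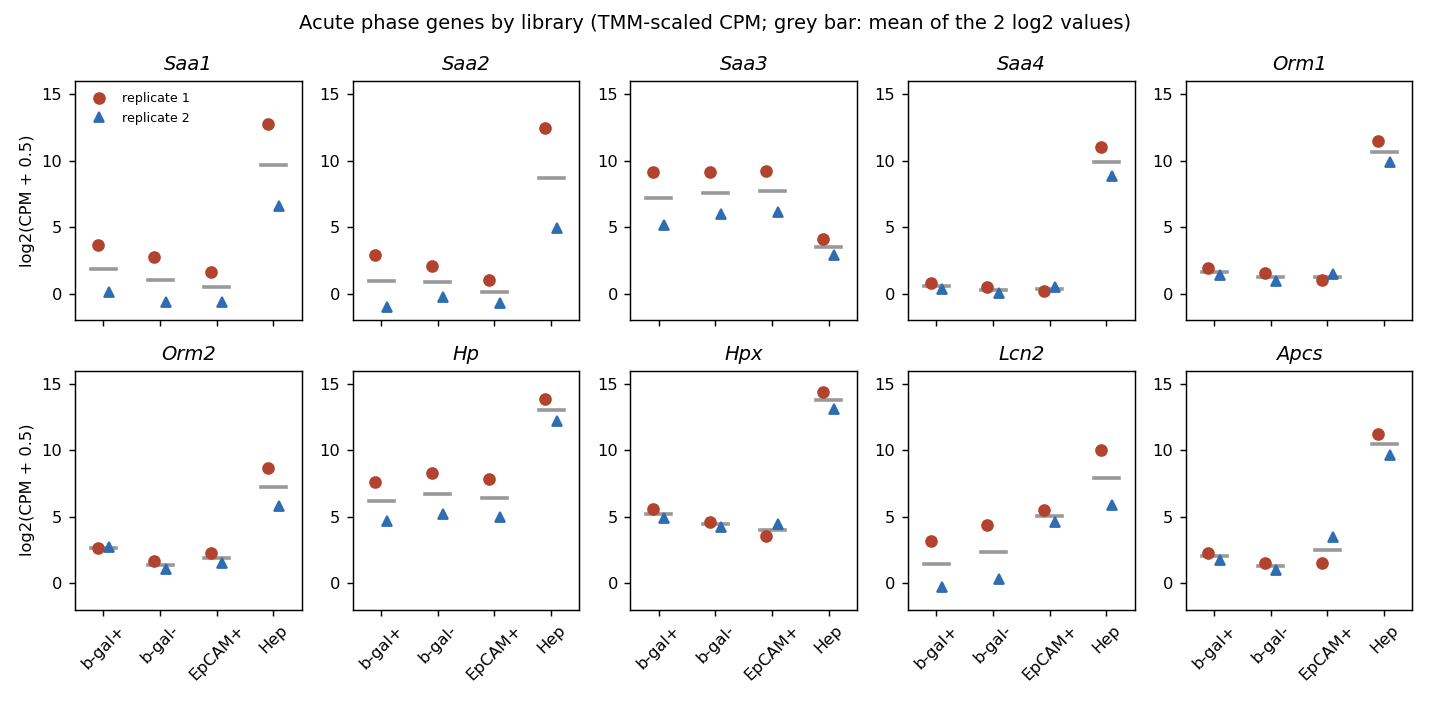
Level of each member in each library as log2(CPM + 0.5) with TMM scaling (vertical axis) in the 4 groups (horizontal axis), with circles for replicate 1, triangles for replicate 2 and a grey bar for their mean. All members but Saa3 sit highest in hepatocytes, Saa3 sits lowest there, and the circles and triangles of Saa1, Saa2, Saa3, Hp and Lcn2 lie far apart.

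Which cell groups carried each transcript was compared first. 9 of the 10 members were lower in F4/80high cells (mean of both gates) than in hepatocytes, and 1, Saa3, was higher, by limma with Benjamini-Hochberg adjustment. Over all genes tested, 66.2% were called, 34.8% higher and 31.4% lower, so a call by itself does not set the members apart. The members' median log2 difference was -8.0, against 0.16 for all genes tested. In EpCAM-positive cells against the same hepatocyte libraries, 8 members were lower and none was higher, where 29.1% of all genes were lower and 33.5% higher (62.5% called), and the median was -8.26 against 0.15. With library totals in place of TMM the split of all genes was 8450 higher and 2394 lower for F4/80high cells (5017 and 4516 with TMM), and 9669 and 1650 for EpCAM-positive cells (4823 and 4186 with TMM). That scaling moved the median of all genes to 0.97 and 1.37, a shift far smaller than the members' median differences. The shift was a larger part of the Saa3 differences (log2 3.83 and 4.16). The same holds for the Lcn2 difference between EpCAM-positive cells and hepatocytes (log2 -2.88). Without overlap between libraries, 9 members lay below and 1, Saa3, above hepatocytes in each comparison, where 33.4% of all genes lay below and 37.3% above in F4/80high cells, and 36.8% and 44.0% in EpCAM-positive cells.

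In hepatocytes the heme and hemoglobin carriers were the most abundant members. Hpx was read at 21669 and 8828 CPM in hepatocyte replicates 1 and 2, 11.4 and 21.7 in EpCAM-positive, 24.3 and 18.6 in b-gal- libraries, and 46.8 and 30.1 in b-gal+ libraries. Its hepatocyte mean was 15248 ± 9080 CPM (SD, n = 2), 481-fold above F4/80high cells on the log2(CPM + 0.5) scale (log2 difference -8.91, SE 0.42, limma adjusted p = 6.24e-06) and 852-fold above EpCAM-positive cells (adjusted p = 1.53e-05). Both hepatocyte libraries lay far above all others. Hp was read at 15182 and 4780 CPM in hepatocytes, 231 and 30.9 in EpCAM-positive, 309 and 35.9 in b-gal- libraries, and 199 and 25.1 in b-gal+ libraries. Hp was 97.9-fold lower in F4/80high cells (log2 -6.61, SE 1.28, limma adjusted p = 0.00318) and 100-fold lower in EpCAM-positive cells (adjusted p = 0.0069, but 0.0592 without hepatocyte replicate 1). Unlike Hpx, the Hp level in each sorted group was high in replicate 1 and low in replicate 2.

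Among the glycoproteins, Orm1 was read at 2834 and 939 CPM in hepatocytes and at 1.42 to 3.36 in the 6 other libraries, 595-fold lower in F4/80high cells (log2 -9.22, SE 0.46, limma adjusted p = 7.73e-06). Orm2 was read at 399 and 55.4 CPM in hepatocytes, 4.29 and 2.39 in EpCAM-positive, 2.65 and 1.61 in b-gal- libraries, and 5.68 and 5.99 in b-gal+ libraries. Its difference from hepatocytes was smaller, 37.0-fold in F4/80high and 40.2-fold in EpCAM-positive cells (log2 -5.21, SE 0.72, and -5.33, SE 0.83, limma adjusted p = 0.00064 and 0.00144). Orm2 was below Orm1 in hepatocytes. Orm2 was above Orm1 in b-gal+ replicates 1 and 2 (127 and 149 reads against 75 and 52) and EpCAM-positive replicate 1 (141 against 50). The reads were close in b-gal- replicates 1 and 2 (69 and 33 against 64 and 29) and EpCAM-positive replicate 2 (64 against 60). The reservation on near-identical copies holds for all of these. The pentraxin Apcs was read at 2397 and 822 CPM in hepatocytes, 1.52 to 4.34 in the F4/80high libraries, and 2.40 and 10.5 in EpCAM-positive replicates 1 and 2. Apcs was 448-fold lower in F4/80high cells and 248-fold lower in EpCAM-positive cells (limma adjusted p = 2.76e-05 and 0.000126).

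Of the serum amyloids, Saa4 was the most uniform outside hepatocytes, at 0.538 to 1.21 CPM in 6 libraries, against 2082 and 454 CPM in hepatocytes (log2 -9.51, SE 0.57, limma adjusted p = 1.49e-05 for F4/80high cells). Saa1 was read at 6816 and 98.7 CPM in hepatocytes, 2.55 and 0.150 in EpCAM-positive, 6.26 and 0.147 in b-gal- libraries, and 11.9 and 0.604 in b-gal+ libraries. Its hepatocyte SD (4750 CPM) exceeded its mean (3457 CPM, n = 2), yet the hepatocyte libraries still lay above all others. Saa2 was read at 5650 and 30.9 CPM in hepatocytes, 1.52 and 0.112 in EpCAM-positive, 3.65 and 0.343 in b-gal- libraries, and 6.93 and 0 in b-gal+ libraries. At 0, 3, 3 and 4 reads, Saa2 in b-gal+ and EpCAM-positive replicate 2 and Saa1 in b-gal- and EpCAM-positive replicate 2 were near the detection limit, so the folds of this pair depend on the pseudocount. The fitted log2 differences of F4/80high cells from hepatocytes were -8.21 (SE 1.91, limma adjusted p = 0.00757) for Saa1 and -7.79 (SE 2.10, adjusted p = 0.0143) for Saa2. Without hepatocyte replicate 1 these calls were lost (adjusted p = 0.0712 and 0.104). Against EpCAM-positive cells the adjusted p rose likewise, from 0.0097 to 0.0598 for Saa1 and from 0.019 to 0.0884 for Saa2, and Saa2 also lost its call without EpCAM-positive replicate 1 (0.0513) or 2 (0.0791).

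Saa3 ran the other way. Its level was 17.1 and 7.19 CPM in hepatocytes, 611 and 70.1 in EpCAM-positive, 569 and 63.7 in b-gal- libraries, and 577 and 35.4 in b-gal+ libraries. All 6 sorted libraries lay above both hepatocyte libraries, and the replicate 1 libraries of the 3 sorted groups lay close together, at 569 to 611 CPM. F4/80high cells exceeded hepatocytes 14.3-fold for Saa3 (log2 3.83, SE 1.43, limma adjusted p = 0.0493) and EpCAM-positive cells 17.9-fold, without a call (log2 4.16, SE 1.65, adjusted p = 0.0633). The first call is marginal. Over the 16 alternatives its adjusted p ran from 0.00105 to 0.252, with the log2 difference between 2.83 and 4.91, and it was lost without any 1 of b-gal+ replicate 1 (0.104), b-gal- replicate 1 (0.11), EpCAM-positive replicate 1 (0.0511), hepatocyte replicate 1 (0.135) or hepatocyte replicate 2 (0.252). The comparison with EpCAM-positive cells passed in turn without either b-gal+ library (0.0423 without the first, 0.0421 without the second) or without EpCAM-positive replicate 2 (0.0418).

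Lcn2 was intermediate. It was read at 1019 and 59.2 CPM in hepatocytes, 44.7 and 24.5 in EpCAM-positive, 20 and 0.783 in b-gal- libraries, and 8.63 and 0.322 in b-gal+ libraries. Hepatocytes did not overlap with the other groups, nor did EpCAM-positive with F4/80high libraries. Lcn2 was 65.7-fold lower in F4/80high cells than in hepatocytes (log2 -6.04, SE 1.59, limma adjusted p = 0.0129, and 0.132 without hepatocyte replicate 1). Its difference between EpCAM-positive cells and hepatocytes was 7.34-fold and not called (log2 -2.88, SE 1.84, adjusted p = 0.211). Over the alternatives that adjusted p ran from 0.0192 to 0.749.

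Acute phase transcripts were compared next between the b-gal+ and b-gal- F4/80high gates. As given above, these gates also differed in Kupffer cell and sinusoidal endothelial marker sums, and the part of cell content was not tested. No member was called between b-gal+ and b-gal- F4/80high cells by limma, where 23.3% of all genes were. No member had an unadjusted p under 0.05 either, and edgeR's quasi-likelihood test and DESeq2 also called 0. The members' median difference was 0.36, against -0.02 over all genes. With library totals in place of TMM the split of all genes was 1165 higher and 2253 lower, against 1491 and 1867. Hpx, Orm2 and Apcs were higher in both b-gal+ libraries than in both b-gal- libraries, a pattern that 33.8% of all genes showed in that direction and 35.2%, but no member, in the other. The 10 hepatocyte markers had a median log2 difference of 0.77 between the same gates with 0 called by limma and 0 at an unadjusted p under 0.05, and their part in the members' differences was not tested. Hpx had the lowest unadjusted p (log2 0.81, SE 0.49, limma adjusted p = 0.296), and Orm2 the largest difference (log2 1.30, SE 0.83, adjusted p = 0.327). For Saa1, Saa2, Saa3, Hp and Lcn2 the SE was 1.48 to 2.43 on the log2 scale. Each SE comes from 1 fit of all 8 libraries, so replicate differences in hepatocytes and EpCAM-positive cells enter it too. For Orm2 the log2 replicate difference was -0.07 in b-gal+ and 0.57 in b-gal- libraries but 2.84 in hepatocytes. For Saa2 it was 3.89, 2.30 and 7.49. Differences between the gates well beyond severalfold could therefore have been missed, and 0 calls do not show that the gates were alike.

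F4/80high and EpCAM-positive cells gave the same count. Limma called 0 members, where 19.8% of all genes were called, and 0 had an unadjusted p under 0.05, as 0 were called by edgeR and by DESeq2. The median of the members was 0.10, against 0.02 over all genes, and library totals gave 618 genes higher and 2704 lower, against 1325 and 1524 with TMM. Lcn2 was the 1 member whose groups did not overlap, lower in the 4 F4/80high libraries than in both EpCAM-positive ones, as 15.6% of all genes were. Its difference was 8.95-fold (log2 -3.16, SE 1.59, limma adjusted p = 0.218), and over the alternatives the adjusted p ran from 0.024 to 0.43.

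For several members the libraries within a group differed by more than the sorted groups did from one another. All 10 members were at least 2-fold higher in replicate 1 than in replicate 2 of hepatocytes (on the log2(CPM + 0.5) scale), where 1.78% of all genes were. At least 2-fold differences in the same direction were found for 5 members in b-gal+ (3.67% of all genes), 5 in b-gal- (4.41%) and 4 in EpCAM-positive libraries (9.22%), where Apcs was the 1 member that differed 2-fold the other way (11.7%, against 1.69% and 1.74% in b-gal+ and b-gal-, where no member did). Saa1, Saa2, Saa3 and Hp were at least 2-fold higher in replicate 1 of all 4 groups, as were 37 of 14404 genes (0.257%), and 12 genes (0.0833%) differed 2-fold the other way in all 4. These are single pairs of libraries, described without a test.

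**Figure D2:**
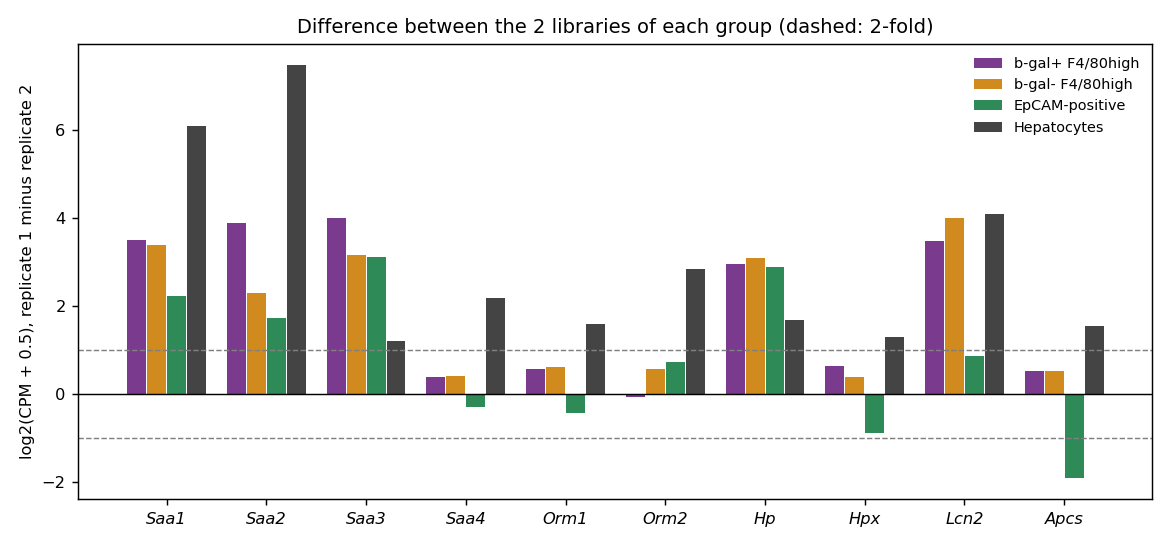
Difference between replicate 1 and replicate 2 of each group, in log2(CPM + 0.5), with 1 bar per member and group and dashed lines at 2-fold. All hepatocyte bars lie above the upper line, and Saa1, Saa2, Saa3 and Hp pass it in all 4 groups.

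Saa1 and Saa2 differed most in hepatocytes, where replicate 1 was 69.1-fold and 183-fold above replicate 2. Orm2 differed 7.20-fold there, Lcn2 17.2-fold, Saa4 4.58-fold, Hp 3.18-fold, Orm1 3.02-fold, Apcs 2.92-fold and Hpx 2.45-fold. Saa3 had the smallest hepatocyte ratio of all, 2.38-fold, but the ratios in the sorted groups were 8.71 in EpCAM-positive, 8.94 in b-gal- and 16.3 in b-gal+ libraries. Hp ratios there were 7.48, 8.59 and 7.91. Lcn2 differed 26.8-fold in b-gal+ and 25.6-fold in b-gal- but 1.83-fold in EpCAM-positive libraries. Saa4, Orm1, Hpx and Apcs, in contrast, stayed between 1.31-fold and 1.73-fold in both F4/80high groups, and in EpCAM-positive libraries replicate 2 was the higher one for all 4. Saa1 made up 54.7% of the Saa1 and Saa2 reads in hepatocyte replicate 1, 76.2% in hepatocyte replicate 2, and 62.7% to 63.3% in the replicate 1 libraries of the sorted groups.

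**Figure D3:**
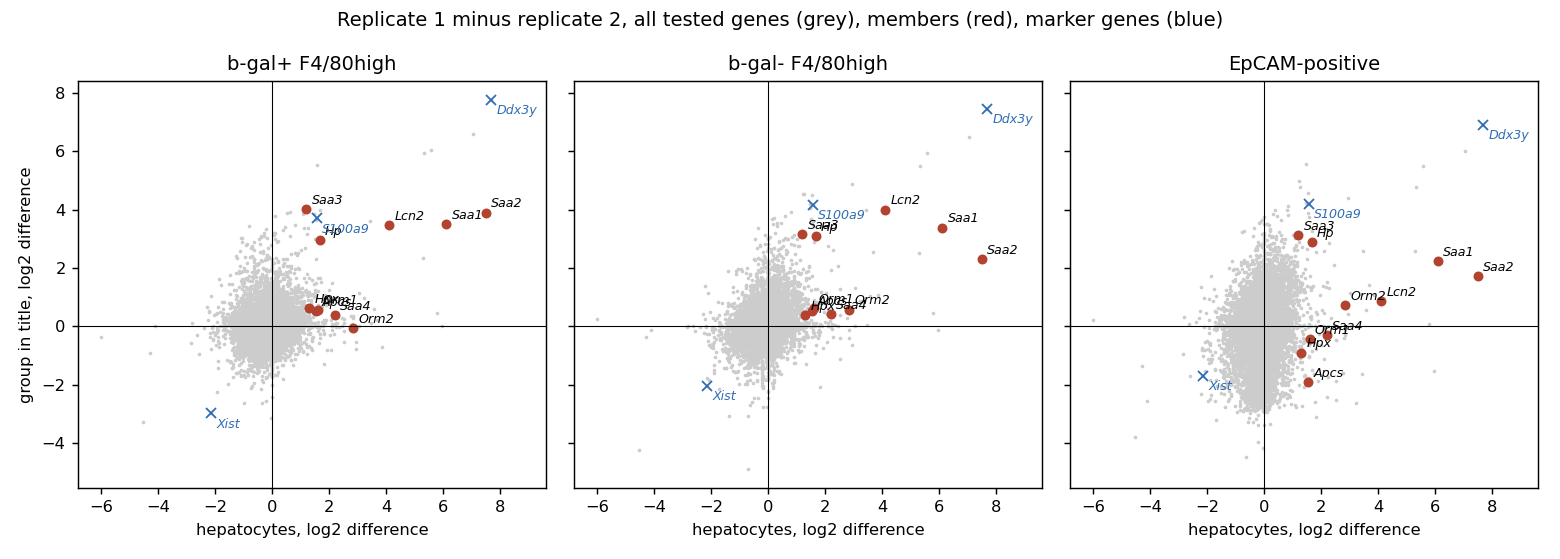
Replicate difference in hepatocytes (horizontal axis) against that in each sorted group (vertical axis), in log2(CPM + 0.5), with all tested genes in grey and the members named. Saa1 and Saa2 lie far to the right, Saa3 lies high with a small hepatocyte difference, and S100a9, Ddx3y and Xist are marked for scale.

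Other measures separated the same libraries. The summed level of 11 neutrophil markers in replicates 1 and 2 was 431 and 27.8 CPM for EpCAM-positive, 438 and 38.9 for b-gal-, 225 and 154 for b-gal+ and 9.82 and 2.71 for hepatocyte libraries, where Ngp, Camp, Ltf and Mpo were at 0 in replicate 2. Elane was at 0 in EpCAM-positive replicate 2. Csf3r, singled out after its values were seen, made up 101 and 143 CPM of the b-gal+ sums, and the other 10 markers summed to 401 and 16.2, 375 and 18.4, 125 and 11.1, and 8.49 and 1.68 CPM in the same order of groups. S100a9, a neutrophil and monocyte calcium-binding protein, was read at 159 and 8.19 CPM in EpCAM-positive, 158 and 8.27 in b-gal-, 56.5 and 3.86 in b-gal+ and 2.88 and 0.639 in hepatocyte libraries. All 6 monocyte markers were read in every library, and they summed to 593 and 118, 797 and 165, 320 and 94.5, and 14.6 and 10.1 CPM in the same order. Further lists moved in single groups. In EpCAM-positive libraries all 10 Kupffer cell markers were at least 2-fold higher in replicate 1 (median log2 difference 2.76), against 9.22% of all genes. There 9 of 10 cholangiocyte markers were at least 2-fold lower (median -1.79), against 11.7%. In b-gal+ libraries 5 of 8 stellate cell markers were at least 2-fold higher in replicate 1 (median 2.14), against 3.67%. In hepatocyte libraries 6 of 10 sinusoidal endothelial markers were at least 2-fold lower in replicate 1 (median -1.1), against 2.88%. Transcripts of the Y chromosome, chosen after their values were seen, differed too: Ddx3y had 2436, 2264, 1951 and 1399 reads in the replicate 1 libraries and 0 in every replicate 2 library. Xist, the X inactivation RNA, was higher in replicate 2 of each group, at 634 to 1837 CPM against 108 to 414. The labels give no sex. Replicate number therefore cannot be told apart from the presence of Y chromosome transcripts, and the part of sex or of these cell types in the members' replicate differences was not tested.

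The summed hepatocyte markers, albumin among them, moved in the opposite direction to Saa1 in the sorted libraries. Albumin (Alb), the main secreted protein of hepatocytes, in replicates 1 and 2 was at 652 and 4705 CPM for EpCAM-positive, 138 and 335 for b-gal-, 222 and 572 for b-gal+ and 126496 and 202856 for hepatocyte libraries. All 10 hepatocyte markers had reads in every sorted library. They summed to 283 and 701, 173 and 411, and 736 and 5113 CPM in b-gal+, b-gal- and EpCAM-positive replicates 1 and 2. Counted per 1000 Alb reads, Saa1 stood at 53.9 in hepatocyte replicate 1, 53.8 in b-gal+ replicate 1 and 45.3 in b-gal- replicate 1, and at 0.486, 1.05 and 0.439 in the corresponding replicate 2 libraries. Hpx stood at 171, 211 and 176 in replicate 1 and at 43.5, 52.6 and 55.6 in replicate 2. Orm1 gave 22.4, 15.1 and 17.8 in replicate 1 and 4.63, 3.65 and 4.24 in replicate 2. For Saa1, Hpx and Orm1, and for Apcs, the F4/80high libraries thus had ratios to albumin within 2.17-fold of the hepatocyte library of the same number, where these could be compared above 3 reads. The 2.17-fold limit is the Saa1 ratio in b-gal+ replicate 2, on 15 reads, and was not set beforehand. The other 6 members had at least 1 F4/80high library outside that range. Saa4 was 1.39-fold to 3.03-fold lower per albumin read than in hepatocytes. Saa2 was 1.43-fold and 1.69-fold lower in replicate 1 of b-gal+ and b-gal-, and 6.72-fold higher, on 7 reads, in b-gal- replicate 2. Orm2 was 6.08-fold to 38.3-fold higher in the 4 F4/80high libraries, and Lcn2 1.93-fold to 18.0-fold higher. Hp per 1000 Alb reads was 894 in b-gal+ and 2233 in b-gal- against 120 in hepatocytes for replicate 1, and 43.9 and 107 against 23.6 for replicate 2, the b-gal+ replicate 2 value being 1.86-fold higher. Saa3 stood furthest out, at 2599 and 4120 against 0.135 in replicate 1 and 61.9 and 190 against 0.0354 in replicate 2. In EpCAM-positive libraries Saa1 (3.91 and 0.0318), Hpx (17.4 and 4.61) and Orm1 (2.33 and 0.477) were 9.44-fold to 15.3-fold lower per albumin read than in the hepatocyte library of the same number. The Saa1 ratios of the sorted replicate 2 libraries rest on 3 to 15 reads each. The part of hepatocyte RNA in the sorted libraries' member reads was not tested.

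**Figure D4:**
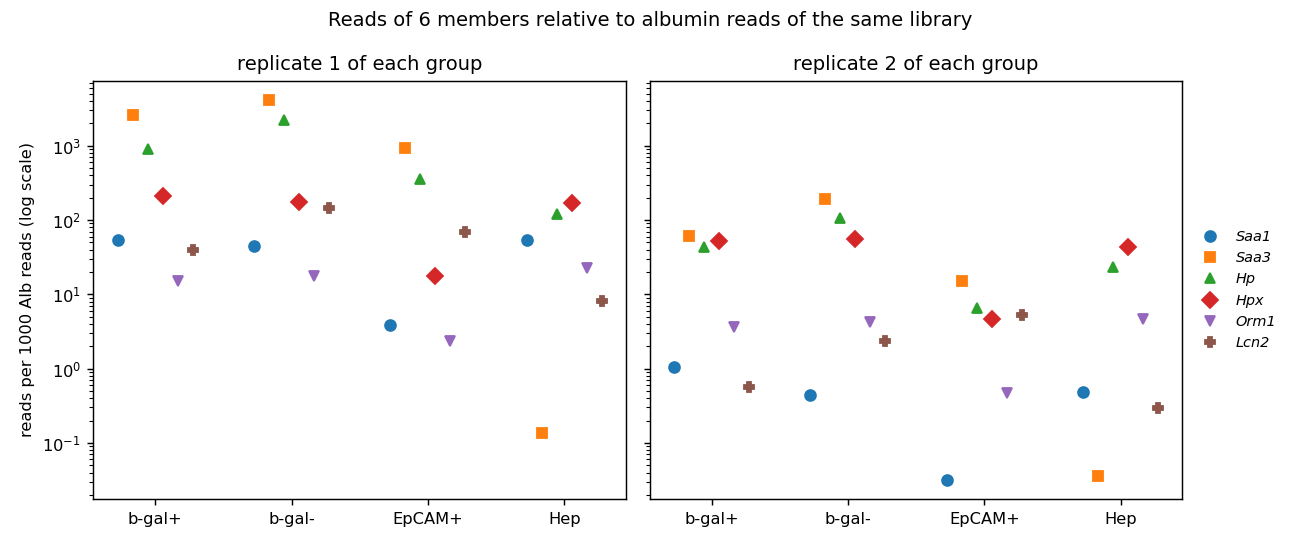
Reads of 6 members per 1000 albumin reads in each group, on a log axis, with replicate 1 and replicate 2 in separate panels. Saa1, Hpx and Orm1 stand at similar heights in hepatocytes and both F4/80high groups of a panel, while Saa3 stands far above its hepatocyte value in the sorted groups (936 to 4120 against 0.135 in replicate 1).

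The libraries' patterns were compared by Pearson correlation of log2(CPM + 0.5) over the 8 libraries among 7909 genes, as a description, since the libraries share the group and replicate structure. Saa3 was most like Slpi (r = 0.995), a secreted protease inhibitor, then Serpinb2 (0.993), Chil1 (0.984), Nub1 (0.984) and Chil3 (0.983). Slpi was read at 381 and 27.8 CPM in EpCAM-positive, 328 and 26.7 in b-gal-, 290 and 5.71 in b-gal+ and 3.10 and 0.719 in hepatocyte libraries. Saa1 was most like Prelid1 (0.983), Tmem242 (0.98), Cops4 (0.98), Cope (0.976) and Stat3 (0.976). Stat3, the transcription factor downstream of IL-6, was at 452 and 277 CPM in hepatocytes and 138 to 229 in the other libraries, so its range was far smaller than that of Saa1. Hp was most like Ttll12 (0.993), Lrg1 (0.984), Eif3c (0.982), Eif2b1 (0.982) and Ssr3 (0.981). Lcn2 had less close matches, led by Polr1c (0.974), Acbd6 (0.937) and Rmnd5b (0.935). Saa4, Orm1, Hpx and Apcs were matched at r of 0.996 or above by genes higher in hepatocytes than elsewhere. These included Itih3 and C9 for Orm1, Itih4 and C9 for Hpx, and Cyp2d9 for Apcs. They also included genes with clear levels in every library, such as Urod for Saa4 and Orm1. Urod was at 143 and 114 CPM in hepatocytes and 24.1 to 26.5 elsewhere. Saa2 was most like Sec22b (0.979), and Orm2 most like Psmb6 (0.996). Saa1 and Saa2 were the closest pair of serum amyloids (r = 0.99), while Saa1 and Saa3 had r = -0.407, both being higher in replicate 1 of every group but with opposite order between hepatocytes and sorted cells.

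The other genes of the response place the members in context. Of 28 tested acute phase genes that rise in inflammation, other than the members, 3 were higher and 25 lower in F4/80high cells than in hepatocytes (34.8% and 31.4% of all genes), and 2 were higher and 25 lower in EpCAM-positive cells against the same hepatocytes (33.5% and 29.1%), with medians of -8.12 and -7.39. Hamp, the iron hormone hepcidin, was 871-fold lower in F4/80high cells (limma adjusted p = 2.99e-05), and Fga, a fibrinogen chain, 585-fold lower (adjusted p = 5.2e-06). Against EpCAM-positive cells 1 of the 28 was higher and 2 were lower in F4/80high cells, where 19.8% of all genes were called. Crp and Cp, C-reactive protein and the copper carrier ceruloplasmin, were 20.5-fold and 17.5-fold lower (limma adjusted p = 0.00564 and 0.00482). Their levels in EpCAM-positive replicates 1 and 2 were uneven, at 26.0 and 132 CPM for Crp and 259 and 1239 for Cp. Lgals3bp was 2.26-fold higher in F4/80high cells (limma adjusted p = 0.00385). Between the gates 1 of the 28 was higher and 2 were lower in b-gal+ cells, where 23.3% of all genes were called. Cfb, complement factor B, was 2.44-fold higher (adjusted p = 0.0119), and Mt2, a metallothionein, and Lbp, which binds bacterial lipopolysaccharide, were 3.65-fold and 2.86-fold lower (adjusted p = 0.0377 and 0.0447). In hepatocytes, 5 of the 28 were at least 2-fold higher in replicate 1 (1.78% of all genes) and none lower, with a median log2 difference of 0.48 against 1.93 for the members. Lrg1, a glycoprotein of the acute phase, was the 1 gene of this list at least 2-fold higher in replicate 1 of all 4 groups, at 2812 and 610 CPM in hepatocytes and 45.9 and 4.59 in b-gal+ libraries. Of the 12 negative acute phase genes, which fall in inflammation, all 12 were lower than hepatocytes in both comparisons. None differed 2-fold between the hepatocyte libraries (median -0.41). In the sorted groups more of them differed. At least 2-fold lower in replicate 1 were 10 in EpCAM-positive (11.7% of all genes), 6 in b-gal+ (1.69%) and 5 in b-gal- libraries (1.74%). In b-gal- libraries 1 was at least 2-fold higher (4.41%). Igf1 and Trf, a growth factor and the iron carrier transferrin, were higher in b-gal+ than in b-gal- cells, 9.10-fold and 5.28-fold (adjusted p = 0.00164 and 0.00745).

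Signalling genes of the response were called in both directions. Of 30 signalling genes and transcription factors, 17 were higher and 8 lower in F4/80high cells than in hepatocytes (34.8% and 31.4% of all genes), and 16 higher and 9 lower in EpCAM-positive cells (33.5% and 29.1%). Il1b, a cytokine of the acute phase response, was 92.6-fold higher in F4/80high cells (limma adjusted p = 5.63e-05), at 174 to 1099 CPM against 6.43 and 4.63 in hepatocytes, and Tnf was 117-fold higher (adjusted p = 3.25e-05). The hepatocyte factors Hnf4a and Creb3l3 were 611-fold and 238-fold lower (adjusted p = 1.84e-05 and 1.57e-05). Between the gates 5 of the 30 were higher and 5 lower, where 23.3% of all genes were called. The receptors Osmr, Lifr, Il6st and Il1r1 were 10.4-fold, 10.3-fold, 8.01-fold and 7.86-fold lower in b-gal+ cells (adjusted p = 0.000901 to 0.00227). Il6st, the shared IL-6 family receptor chain, was at 2508 and 2899 CPM in b-gal- libraries, where endothelial markers were also high, and the part of endothelial RNA was not tested.

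Of 17 tested receptors and clearance partners of the member proteins, 15 were higher and 1 lower in F4/80high cells than in hepatocytes (34.8% and 31.4% of all genes), 10 were higher and 2 lower in EpCAM-positive cells against the same hepatocytes (33.5% and 29.1%), and 7 were higher and 2 lower in b-gal+ than in b-gal- cells (23.3% called). Cd163, the receptor for the complex of haptoglobin and hemoglobin, was 18.2-fold higher in b-gal+ cells (limma adjusted p = 0.00541), at 1873 and 1238 CPM against 102 and 67.4. Hmox1, which degrades heme, was 11-fold higher (adjusted p = 0.0147) and Fpr1, a formyl peptide receptor, 8.53-fold higher (adjusted p = 0.0311). Cd163 and Hmox1 also exceeded EpCAM-positive cells, 34.5-fold and 11.7-fold (adjusted p = 0.00352 and 0.01). Lrp1, which takes up hemopexin with its heme, was 10.8-fold lower in EpCAM-positive cells than in hepatocytes (adjusted p = 0.00181), while Slc22a17, a lipocalin 2 receptor, was 12.7-fold higher (adjusted p = 0.000266). Kupffer cell markers were high in the same b-gal+ libraries, and their part in these receptor differences was not tested.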

How the data were processed

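Bulk RNA-seq tables of 8 libraries (4 groups of 2) were used. For hepatocyte replicate 1 the authors deposited plain read counts by gene symbol. In the other 7 tables the deposited values are of another unit, reads multiplied by the authors with 1 factor per library (1.08 to 1.54) and written with decimal commas. Dividing by each table's smallest step gave whole reads for 100% of values within 0.01. The counter HTSeq and the build GRCm38.p4 (mm10) are named per the submitters' processing notes. The aligner, the annotation and the scaling step are not given in the sources used here. Of 21982 rows a library, 14 carry a date or number in place of a symbol (0.0514% to 0.182% of values) and were left out.

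Reads were scaled to CPM with TMM (edgeR 4.0.16, R 4.3.3). Genes passing edgeR's default filter (14404) were tested with limma 3.58.1 (trend option) on log2(CPM + 0.5), all 8 libraries in 1 fit with 4 residual degrees of freedom, two-sided, with Benjamini-Hochberg adjustment over all genes tested. A call is an adjusted p under 0.05, and F4/80high cells are the equal-weight mean of both gates. The fit was also run on simulated counts in which few genes differed between groups. That setting lacks the wide differences between these cell groups, so it does not check the fit under them. With 2 libraries a group, p-values measure the spread between these libraries only. Alternatives were edgeR's quasi-likelihood test, DESeq2 1.42.0, other scalings, a pseudocount of 2, no filter, the replicate number as a term and leaving out each library. The members and the gene lists were chosen with earlier results of these data known. Beside the members, genes were taken from up to 4 called genes a list and comparison, those with the largest difference and 10 CPM or more on average. For patterns they were taken from the 5 closest genes averaging 20 CPM or more. Not all genes in these pools are named. Check genes were Alb, Adgre1, Epcam, Clec4f, Stab2, S100a8, S100a9 and Ngp, not all of which are given with values. Lrg1, Il6ra, the sex-linked genes and the levels of Slpi, Stat3 and Urod were picked out after their values were seen. Positions are from GENCODE M21 and promoters from RefSeq. Levels per kilobase use the length of 1 GENCODE transcript a gene.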

Additional observations from a re-analysis of the deposited data

How the results depend on the processing

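With 2 libraries a group, leaving 1 out leaves a lone library that is assumed to vary like the other groups. Of the recomputed member differences, 580 kept direction and call, 16 lost a call, 9 gained one and 35 turned direction, and none of the 35 was a called difference. Leaving out hepatocyte replicate 1 took the called members from 10 to 6 in F4/80high cells against hepatocytes and from 8 to 5 in EpCAM-positive cells against hepatocytes. Over the leave-outs these counts ran from 6 to 10 and from 5 to 9, and stayed at 0 in the other pair of comparisons. The count of all genes called ran from 1289 to 4366 between b-gal+ and b-gal- cells (3358 with all libraries; lowest without b-gal- replicate 2) and from 1500 to 4045 between F4/80high and EpCAM-positive cells (2849 with all; lowest without b-gal+ replicate 2). The cause was not tested.

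Besides the lost calls given with the results, Saa3 in F4/80high cells against hepatocytes missed the threshold with a pseudocount of 2 (adjusted p = 0.0613), no filter (0.0694) and DESeq2 size factors (0.0514). In EpCAM-positive cells against hepatocytes Saa3 passed with library totals (0.0167), the deposited values as they are (0.0206) and DESeq2 (0.00791).

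Turned directions between b-gal+ and b-gal- cells were Saa2 at -0.08 with library totals and -0.08 with deposited values, and Saa3 at 0.06 with DESeq2. The leave-out ranges were -0.92 to 2.6 for Saa1, -1.9 to 2.02 for Saa2, -2.41 to 1.63 for Saa3, -2.11 to 0.97 for Hp and -2.9 to 1.09 for Lcn2. Between F4/80high and EpCAM-positive cells, library totals gave -0.15 for Saa4, -0.07 for Orm1, -0.2 for Orm2 and -0.33 for Hp, and deposited values -0.08, -0.1 and -0.21 for Saa4, Orm2 and Hp. Leave-out ranges there were -0.12 to 2.07 for Saa1, -0.2 to 1.74 for Saa2, -1.88 to 1.24 for Saa3, -0.06 to 0.23 for Saa4, -0.24 to 0.49 for Orm2, -1.41 to 1.48 for Hp and -1.8 to 0.12 for Apcs.

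Groups share the replicate numbers 1 and 2, which is too few to take them as pairs. Replicate differences correlated across genes at 0.177 to 0.494 between groups. With the replicate number as a block, 1 member was called between F4/80high and EpCAM-positive cells, Lcn2 (log2 -3.16, limma adjusted p = 0.024), and in EpCAM-positive cells against hepatocytes Saa3 (0.00166) and Lcn2 (0.0192) passed, so that all 10 members were called there.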
